A study of Drosophila melanogaster with 2 samples.

Results

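The X chromosome of Drosophila melanogaster carried 3588 of the 26571 accessible regions deposited for D17 cells. These 3588 are all regions listed on X that end at or below 22600000 bp, its euchromatic part on the dm6 build, and 35 regions of X lie beyond that limit. D17 (ML-DmD17-c3) is a cell line that came from the haltere disc of larvae. Accessible DNA was profiled by ATAC-seq, which uses a transposase to cut and tag DNA that is not packed away, in 2 untreated libraries of 1 group. The labels state neither the sex of the line, nor its chromosome number, nor whether the libraries came from separate cultures. Both libraries share 1 deposited peak list with no value for either library, so X is set beside the autosomal arms as a description, without SD and without a test over samples. The last region inside the limit (X:22543175-22543782) had a fold of 1.70 over local background, and the first one beyond it (X:22681022-22681303) had 1.87.

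In flies the male X is bound by the MSL complex, which is guided by the roX RNAs made from X itself and acetylates histone H4, so that the lone X of a male is transcribed at a rate that balances the X pair of a female. X also holds many regulators of disc patterning, among them Notch, cut, scalloped, bifid and broad, and the Polycomb genes ph-p and ph-d. The number of ATAC-seq reads from a stretch of DNA depends both on how open it is and on how many copies the cells carry. Copy number was not measured here. The closest value the list gives is the local background of each region, recovered from the authors' fold and p-value. It is the read pileup expected at the summit, and it has a lowest value, 44.4 reads, below which the list does not go. On X the summit pileup ran from 62 to 2124 reads with a median of 106, against 62 to 1911 on the autosomal arms, whose median was 101. The 95% intervals given for folds and shares cover counting error only.

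Of 26 matched marker genes, a region lay at or inside 8 of 8 wing and haltere disc genes, 4 of 4 neuron, 4 of 4 hemocyte, 3 of 4 fat body, 2 of 3 muscle and 2 of 2 germline genes and the glia gene repo. At a gene end alone these were 5 of 8 disc genes, 1 of 4 neuron, 3 of 4 hemocyte, 3 of 4 fat body, 2 of 3 muscle and 0 of 2 germline genes and repo, set against 59.2% of all X and 71.3% of all autosomal protein-coding genes. A summit lay inside 61.1% of all X and 69.7% of all autosomal protein-coding genes. Long genes held more, with a mean of 6.52 summits inside X genes above 20000 bp, against 0.400 up to 2000 bp. These counts of any region do not set disc genes apart from the other types. Strong regions, with a fold of at least 2.999, lay at an end of 3 of 8 disc and 1 of 4 neuron genes. The other types had none, and the share was 14.5% of all X and 10.9% of all autosomal protein-coding genes. At or inside the disc genes the highest fold ran from 2.45 at vg to 10.5 at hth. In the other types elav (5.69) and srp (4.59) had a strong region at or inside, and no other marker did. The region at elav is shared with the overlapping genes arg and lncRNA:enrr. The markers differ in gene length, and its part was not tested. Ubx, the Hox gene that sets haltere identity, had a region inside (fold 4.12) and none at an end. Openness of a gene end is not a measure of its RNA.

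X carried fewer accessible regions for its length than the autosomes, and the difference lay among the weaker ones. Euchromatic X held 159 regions per Mb, against 233 per Mb on the euchromatic parts of 2L, 2R, 3L and 3R (216.8 to 264 on the separate arms), a ratio of 0.683 (95% interval 0.661 to 0.706). Regions covered 10.7% of X, against 14.9% of the autosomal arms. Strong regions, taken as the 10% with the highest fold over the whole list (at least 2.999, which with ties is 10.1% of all regions), had a density within the range of the arms. They numbered 488 on X, or 21.6 per Mb, against 21.9 per Mb on the autosomal arms, where the arms ran from 18.6 on 3R to 25.9 on 2R. Weaker regions numbered 137 per Mb on X, against 211 per Mb on the autosomal arms, and here X lay below the lowest of the arms, 3R with 198. The strong ones therefore made up 13.6% of X regions (12.5% to 14.8%), against 9.43% on the autosomal arms (9.04% to 9.83%). With strong regions chosen by pileup in place of fold the shares were 12.7% on X and 9.81% on the autosomal arms.

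**Figure D1:**
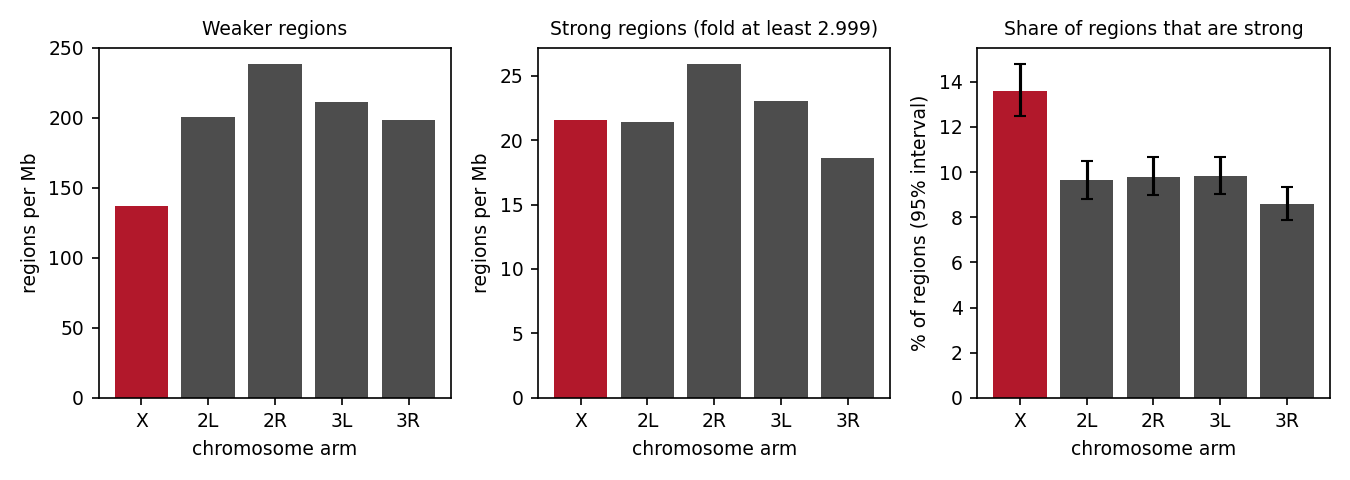
Weaker regions per Mb, strong regions per Mb and the share of regions that are strong (y axes) on X and the 4 autosomal arms (x axes), with exact binomial 95% intervals on the shares. X is lowest for weaker regions, at 137 per Mb, lies within the range of the arms for strong regions, at 21.6 per Mb, and has the highest share of strong regions, 13.6%.

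The middle of the fold distribution was alike and the upper end was not. The median fold was 1.92 on X (1.90 to 1.94) and 1.90 on the autosomal arms (1.89 to 1.90). The 90th percentile was 3.46 on X, against 2.93 on the autosomal arms and 2.98 on the highest of these, 3L. The 99th percentile was 7.70 on X, against 6.10 on the autosomal arms. A fold of 5 or more was reached by 135 X regions (3.76%), against 470 on the autosomal arms (2.19%). Local background stood at its lowest value at 42.4% of X regions (40.82% to 44.1%) and 36.3% of autosomal ones (35.6% to 36.9%), so its median, 47.8 reads on X and 49.3 on the autosomal arms, is held up by that limit. Among regions at the lowest background 11.5% were strong on X, against 7.13% on the autosomal arms. Among regions above it the shares were 15.2% on X and 10.7% on the autosomal arms.

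Relative to genes, X regions lay more often inside genes and less often between them. Summits deeper than 500 bp inside a gene made up 70.7% of X regions, against 63.4% on the autosomal arms, and summits between genes 7.53% on X, against 11.5%. Summits within 500 bp of either end of a gene made up 21.8% of X regions (20.4% to 23.2%), against 25.1% (24.5% to 25.7%). Within 200 bp of a gene end the shares were 9.17% on X and 9.22% on the autosomal arms, so the lower share on X was seen in the wider window only. Protein-coding genes on X were also longer, with a median of 2509 bp against 2067 bp, and sparser, with 96.2 per Mb against 124 per Mb. The part that gene length and spacing have in these shares was not tested. In each place the strong share was higher on X: 22.5% against 14.8% at gene ends, 10.3% against 7.29% inside genes and 18.5% against 9.54% between genes.

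**Figure D2:**
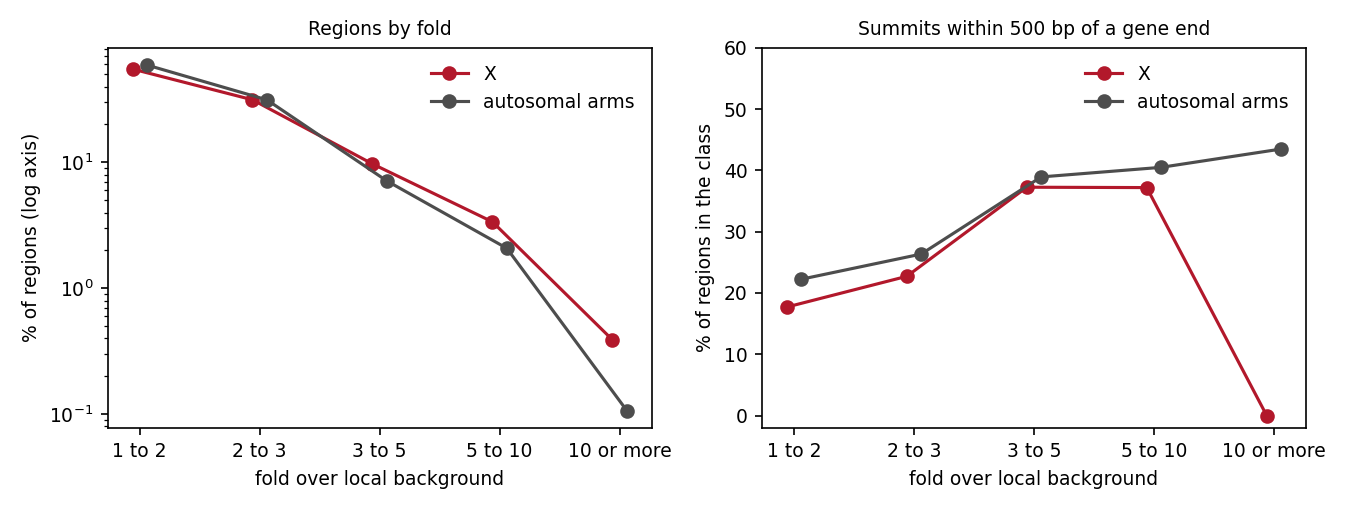
Share of regions in 5 classes of fold (left, log axis) and share of each class with a summit within 500 bp of a gene end (right), for X and for the autosomal arms. From a fold of 3 upward X has the larger share of regions, and in the class of 10 or more none of the X summits lies near a gene end, against 43.5% of autosomal ones.

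The highest folds on X stood apart in the position of their summits and in width. A fold of 10 or more was reached by 14 regions on X, or 0.619 per Mb, against 23 on the autosomal arms, or 0.249 per Mb. None of the 14 X summits lay within 500 bp of a gene end, with 7 inside genes and 7 between them, while 10 of the 23 autosomal ones did. By overlap, the rule used for genes below, X:9880829-9881331 (16.1) still reached the end window of CG9686. So did X:9623492-9625554 (12.6) that of Hecw. Overlap was not counted for the 23 autosomal regions. The X regions were narrow, with a median width of 491.5 bp against 728 bp for the autosomal ones. On X 11 of the 14 lay between 9.20 and 10.3 Mb, and 8 of these 11 were under 600 bp wide. Over the 449 regions from 9 to 11 Mb the median fold was 1.99, against 1.92 on the rest of X, 16.7% were strong, against 13.2%, and the median background was 51.7 reads, against 47.2.

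The highest fold belonged to a region within Pkcdelta, which encodes a member of the protein kinase C family (X:12437682-12438161). Its summit had 1962 reads over a background of 47.1, a fold of 40.77 (39.0 to 42.6), and the summit was 5666 bp from the nearest gene end. A fold of 30.3 (29.0 to 31.7) followed inside CG32700 at X:9515515-9515925, and one of 27.3 (25.9 to 28.7) inside alpha-Man-Ia, a mannosidase gene of N-glycan trimming, at X:10302436-10302862. The last of these was 23441 bp from any gene end. Inside CARPB, a carbonic anhydrase related gene, the fold was 26.04 at X:9809142-9810424, with 2124 reads, the highest pileup on X. The fifth region lay between genes, 3299 bp from CG1986, with 23.2. Hk, which encodes a potassium channel subunit, held a region of 17.1 (X:10240140-10240527). Others of the 10 highest lay 699 bp from CG9689 (16.1) and 4726 bp from vanin-like (14.7). None of these genes is a patterning factor or chromatin gene of the lists used here.

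**Figure D3:**
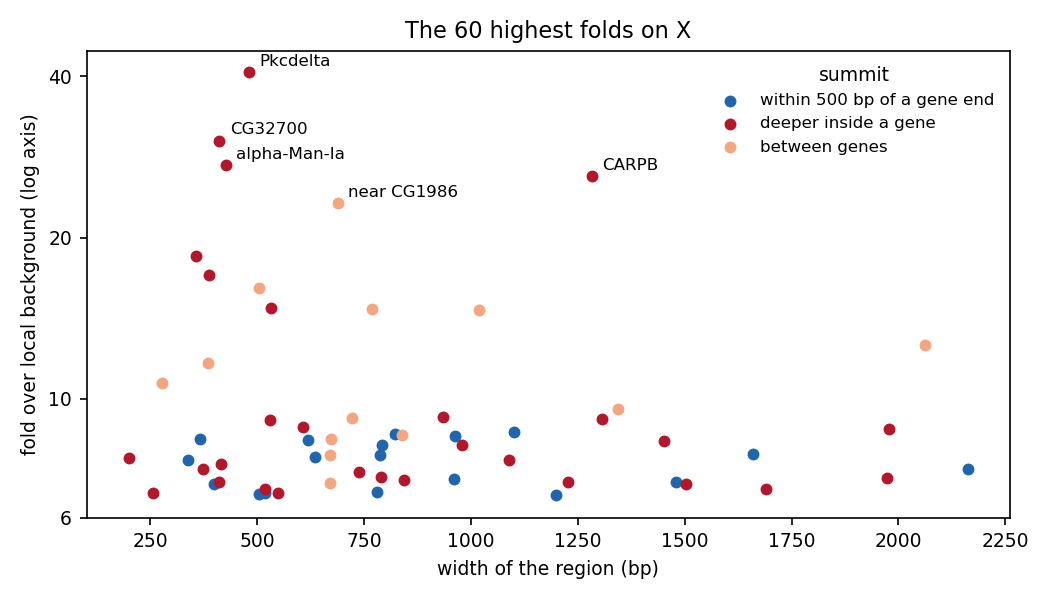
Width in bp (x axis) and fold over local background (y axis, log scale) of the 60 highest folds on X, coloured by where the summit lies relative to genes. The 14 points at a fold of 10 or more include no summit within 500 bp of a gene end, and Pkcdelta is highest with 40.77.

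Along X the number of regions varied more than along the autosomal arms. In stretches of 1 Mb, 22 on X and 91 on the autosomal arms, X held 29 to 304 regions with a median of 171, and the arms 104 to 392 with a median of 232. Fewer than 100 regions were found in 5 stretches of X and in no autosomal stretch. These were the tip, from 0 to 1 Mb, with 36 regions, and then 4 in a row from 12 to 16 Mb, with 61, 61, 29 and 97. The most, 304, lay between 2 and 3 Mb. Strong regions per stretch ran from 3 to 38 on X with a median of 21.5, and from 8 to 41 on the autosomal arms with a median of 21.

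Local background was lowest over most of the region-poor stretch, but not from 12 to 13 Mb. All regions from 13 to 15 Mb stood at the lowest background value, and 88.7% did from 15 to 16 Mb. From 12 to 13 Mb, with 61 regions, 50.8% did. This is below the 69.3% from 17 to 18 Mb, where 127 regions lay. A run of 140 successive regions at that value covered X:12784776-15740105, or 2.96 Mb, while the longest such run on an autosomal arm was 52 regions over 0.648 Mb of 3L. From 12 to 15 Mb X had 37.0 weaker regions per Mb, against 152.5 on the rest of X, and 13.3 strong regions per Mb, against 22.9. The strong share there was 26.5%, against 13.0% on the rest of X (151 regions against 3437). It was uneven, at 32.8% from 12 to 13 Mb, 27.9% from 13 to 14 Mb and 10.3%, with 3 strong regions, from 14 to 15 Mb, and it was 11.3% in the next Mb. From 12 to 15 Mb 58 of 262 protein-coding genes (22.1%) had a region at an end, against 1229 of 1912 on the rest of X (64.3%). For a strong region these were 21 genes (8.02%), against 294 (15.4%). Gene density was not much lower, with 87.3 protein-coding genes per Mb against 97.6. Since the background cannot go below its lowest value, the list does not show how few reads the stretch gave, and the part of read depth or copy number in its low count was not tested. With this stretch left out, a choice made after its counts were seen, X still had 0.754 times the autosomal density of regions.

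The opposite end of the range lay near the tip. From 1 to 3 Mb X held 289 regions per Mb, the median background was 64.9 reads, 14.7% of regions were at the lowest background, and 190 of 232 protein-coding genes (81.9%) had a region at an end. It held 31.5 strong regions per Mb and 257.5 weaker ones, so that 10.9% were strong. Across the 22 stretches of X the number of regions went down as the share at the lowest background went up, with a Spearman correlation of -0.87, and the same held for the 91 autosomal stretches, with -0.81. For strong regions alone the correlation was -0.86 on X and -0.27 on the autosomal arms. These stretches share libraries and neighbouring reads, and background is measured at the regions themselves, so the values are descriptions.

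**Figure D4:**
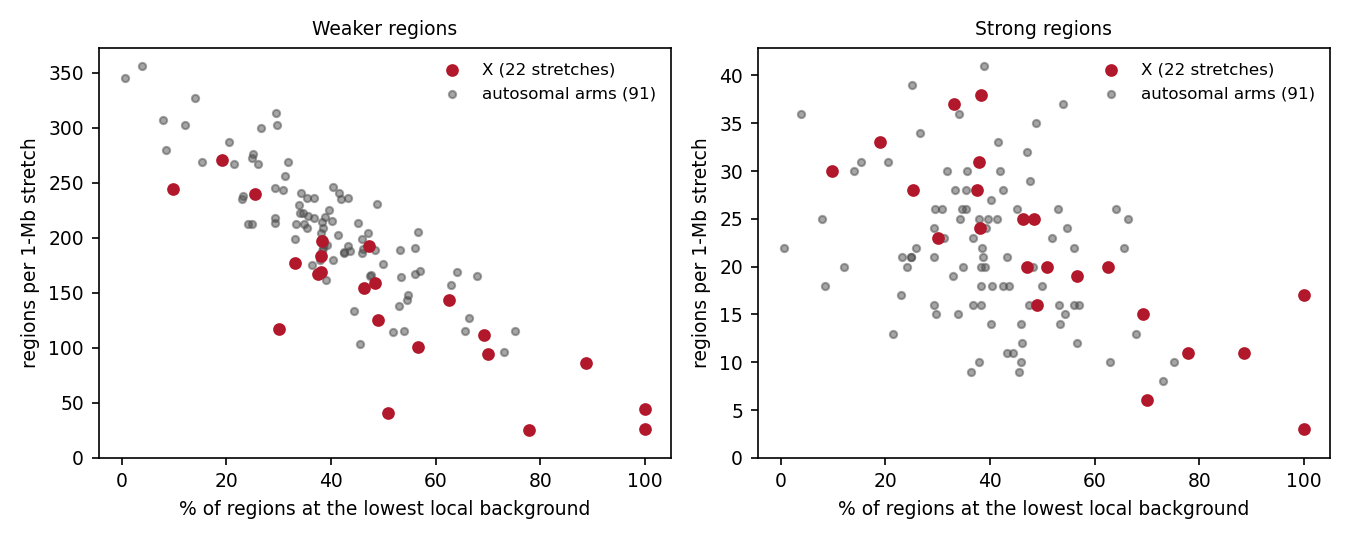
Weaker (left) and strong (right) regions per 1-Mb stretch (y axes) against the share of the stretch's regions at the lowest local background (x axes), for 22 stretches of X and 91 of the autosomal arms. The 2 X stretches at 100% hold 61 and 29 regions, and no autosomal stretch lies beyond 75.2%.

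Among the genes of the richest and the poorest stretch the same contrast showed. From 2 to 3 Mb 112 of 126 protein-coding genes had a region at an end, the highest being ph-p (8.77), moody (8.54), which encodes a receptor needed for the blood-brain barrier, trol (8.38), the perlecan gene, and ph-d (7.88). From 14 to 15 Mb 8 of 88 did. The highest of these were l(1)G0469 (3.90), NetA (3.31), which encodes a Netrin axon guidance cue, and Prp16 (2.78), a splicing helicase gene.

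Genes on X had a region at an end less often than autosomal genes, and a strong one more often. Of 2174 protein-coding genes on euchromatic X, 1287 (59.2%) had a region overlapping 500 bp around an end, against 8202 of 11497 on the autosomal arms (71.3%), where the arms ran from 67.6% to 74.4%. A strong one was found at either end of 315 X genes (14.5%), against 1251 autosomal genes (10.9%), with arms from 10.1% to 11.6%. The 315 genes shared 212 regions, of which 90 served more than 1 gene, so they are not independent. The lower share with any region was found in each class of gene length. Up to 2000 bp it was 50.6% on X against 65.6%, from there to 5000 bp 65.8% against 79.96%, to 20000 bp 65.1% against 75.5%, and above that 62.2% against 66.3%. The shares with a strong region were 5.37% against 5.04%, 15.1% against 10.8%, 26.1% against 22.3% and 26.9% against 25.4% in the same order. The counting intervals of X and autosomal genes overlapped for any region above 20000 bp, and for a strong region up to 2000 bp, from 5000 to 20000 bp and above that. A tRNA gene had a region at an end in 5 of 24 cases on X (20.8%, 7.13% to 42.2%), against 138 of 266 on the autosomal arms (51.9%, 45.7% to 58.0%). Many tRNA genes lie in clusters and share regions. For lncRNA genes the shares were 31.2% on X and 39.3% on the autosomal arms.

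The X members of 10 gene lists were compared by role with all X protein-coding genes. The lists were drawn up with earlier results of these data known, including those for ph-p, ph-d, Dsp1 and z, so the counts describe the members and test nothing. The fold of a gene is that of its highest region at an end. It is read at the summit, which can lie outside the window of 500 bp, as for disco (611 bp from the end) and ph-p (1301 bp). For genes, inside means a summit anywhere between the gene's ends, including within 500 bp of them. The same region can therefore count both at an end and inside. A strong region inside the gene was held by 46.7% of chromatin, 44.4% of general-function, 42.9% of adhesion and polarity and 37.5% of signalling genes. For neuronal genes the share was 36.4% and for patterning factors 35.7%. No member of the other lists held one. Over all X protein-coding genes the share was 11.9%. In most chromatin genes with a strong region inside it was the region at the end, as for ph-p, nej and CoRest. Smr held a separate one. In signalling it was the end region for N, arm, dome and wgn, and a separate one for sgg, Raf and csw. In adhesion and polarity genes it was never the region at an end. The lists were not matched for gene length, and its part was not tested. For X protein-coding genes the strong share at ends was 5.37% up to 2000 bp and 15.1% from 2000 to 5000 bp. It was 26.1% from 5000 to 20000 bp and 26.9% above that. By list the strong share at ends was 32.14% for patterning, 33.3% for signalling, 28.6% for adhesion and polarity and 33.3% for general-function genes. It was 66.7% for chromatin, 18.2% for neuronal and 21.4% for ribosomal protein genes, against 14.5% of all X protein-coding genes.

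Chromatin protein genes had strong regions at their ends more often than any other list. Of 15 members 13 had a region at an end, and in 10 it was strong (66.7%), against 14.5% of all X protein-coding genes. The median fold of the members with a region was 4.68, against 2.21 over all X protein-coding genes with one. The neighbours ph-p and ph-d encode the Polyhomeotic subunits of Polycomb repressive complex 1. The region of ph-p (X:2136439-2138416) had 959 reads over a background of 108, a fold of 8.77 (8.23 to 9.35), and that of ph-d (X:2122344-2124002) 983 reads over 124, a fold of 7.88 (7.39 to 8.38). Dsp1, an HMG protein that binds Polycomb response elements, had 8.67 (7.93 to 9.46) at X:16332753-16333853, a region that also overlaps the end of CG9921. The PHD finger gene e(y)3 had 6.19, at a region that also lies in the end window of Rcd-1. The co-activator nej, the CBP acetyltransferase, had 5.39, and the co-repressors Smr and CoRest 4.72 and 4.68. The cohesin release factor wapl, HP1b and z followed with 3.50, 3.42 and 3.03. The region at wapl also lies in the end window of Cyp4d1. A region below the strong limit lay at trr (2.23), Bap111 (2.06) and Taf9 (1.85). Neither mof nor Bap60, a subunit of the Brahma remodeller in the region-poor stretch, had one at an end.

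Transcription factors that pattern discs and other tissues differed widely among themselves. Of 28 members 18 had a region at an end (64.3%), close to the 59.2% of all X genes, but in 9 it was strong (32.14%), and 10 (35.7%) held a strong region inside, against 11.9% of all X protein-coding genes. The zinc finger gene disco had 9.57 (8.90 to 10.3) at X:16216573-16217916, with 740 reads. The head gap gene oc had 7.10 (X:8650583-8651542), btd 6.95 (X:9693777-9694174) and the LIM homeobox gene Lim1 6.17 (X:8805709-8806120). The homeobox gene ct had 5.81, the LIM-only gene Bx 4.58, disco-r 4.37, Myc 3.76 and gt 3.11. In other members the strong region lay inside the gene. For sd, which encodes the DNA-binding partner of Vestigial and Yorkie, no region lay at an end, and a region inside it (X:15811584-15812518) had 782 reads and a fold of 9.25 (8.61 to 9.92). For bi, the T-box gene of the wing known as optomotor-blind, the fold was 2.56 at an end and 8.85 (8.21 to 9.53) inside (X:4426658-4427263). For br, an ecdysone response factor, these were 2.37 and 7.13, for mamo 2.67 and 5.75, and for the nuclear receptor gene Hr4 no region at an end and 5.07 inside. Without any region at an end were sd, B-H1, B-H2, ovo, Hr4, vnd and the 4 proneural genes ac, sc, l(1)sc and ase.

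Genes of signalling pathways had a region at an end in 21 of 24 cases (87.5%), and 8 (33.3%) had a strong one, against 59.2% and 14.5% of all X protein-coding genes. By role, the repressor of Dpp targets brk was highest, with 880 reads over 106 and a fold of 8.22 (7.68 to 8.78) at X:7307422-7308214. The JAK-STAT receptor gene dome had 5.92 (5.35 to 6.53), at a region that also overlaps the end of Ubqn. Among the ligands of dome upd2 had 4.90, upd3 2.41 and upd1 2.41, while the kinase hop had 1.96. The region at the end of the Notch receptor gene N, X:3134680-3135315 with 4.80 (4.23 to 5.43), is also the one at the end of its neighbour kirre. In the Wingless pathway arm, the beta-catenin gene, had 3.76, dsh 2.34, por 2.23 and the kinase gene sgg 1.78, with a stronger region of 5.06 inside sgg. Raf had 3.73, at a region that also overlaps the end of CG2865, and 6.95 inside. The TNF receptor gene wgn had 3.45 and the growth factor gene Pvf1 3.395. No region lay at an end of sog, shf or fz3.

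Adhesion and polarity genes had 10 of 14 members with a region at an end and 4 with a strong one, and 6 (42.9%) held a strong region inside. Over all X protein-coding genes these shares were 59.2%, 14.5% and 11.9%. The highest were trol (8.38, X:2545145-2545762), kirre (4.80), the integrin gene mys (4.48) and rst (3.04). Ten-a, a teneurin gene, had no region at an end and one of 9.13 (8.27 to 10.05) inside, at X:12203455-12203983. Neither mew, Fas2 nor ogre had a region at an end.

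Genes with general functions had a median fold of 2.51 at their ends. Of 9 members 6 had a region at an end (66.7%) and 3 a strong one (33.3%), against 59.2% and 14.5% of all X protein-coding genes. The strong ones were at the GTPase gene Cdc42 (4.02), the actin gene Act5C (3.35) and the topoisomerase gene Top1 (3.17). None lay at an end of Hsc70-3, sesB and CycD. Of 14 ribosomal protein genes 12 had a region at an end (85.7%) and 3 a strong one (21.4%, near the 14.5% of all X protein-coding genes), namely RpS14b (5.89), RpS19a (4.15) and RpL17 (3.13), while RpL36 and RpS15Aa had none. RpS14a and RpS14b are neighbouring copies of 1 gene, so reads within them may not be told apart. The region at RpS14b also overlaps the end of Ubr3, and its summit lies inside Ubr3. The median fold of the ribosomal protein genes was 2.44.

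Genes used in other tissues were set against the same shares over all X protein-coding genes, 59.2% with any region and 14.5% with a strong one at an end. Of 11 neuronal genes 5 had a region at an end (45.5%) and 2 a strong one (18.2%), near those shares: elav, an RNA-binding protein gene used as a neuron marker (5.69, 5.02 to 6.43), and the phosphodiesterase gene dnc (3.75). Next came Appl (2.38) and shakB (2.293), while the sodium, potassium and calcium channel genes para, Sh and cac had none. The region at elav also lies inside the overlapping gene arg and at the end of lncRNA:enrr. Of 11 yolk, eggshell and germline genes 7 had a region at an end and none a strong one, with 2.35 at Yp1, 2.204 at Yp2 and 2.16 each at dec and Cp36, and no region at an end of Yp3, otu and Cp7Fb. Of 14 odorant and gustatory receptor genes 7 had a region at an end and none a strong one. Counts of none in lists this short cannot be told from a share of 14.5%. The highest values were 2.18 at Gr9a, 2.01 at Gr8a, 1.92 at Gr2a and 1.77 at Or2a. Or1a, Or9a and Or13a had none. Gr10a and Or10a have the same coordinates and share their region.

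**Figure D5:**
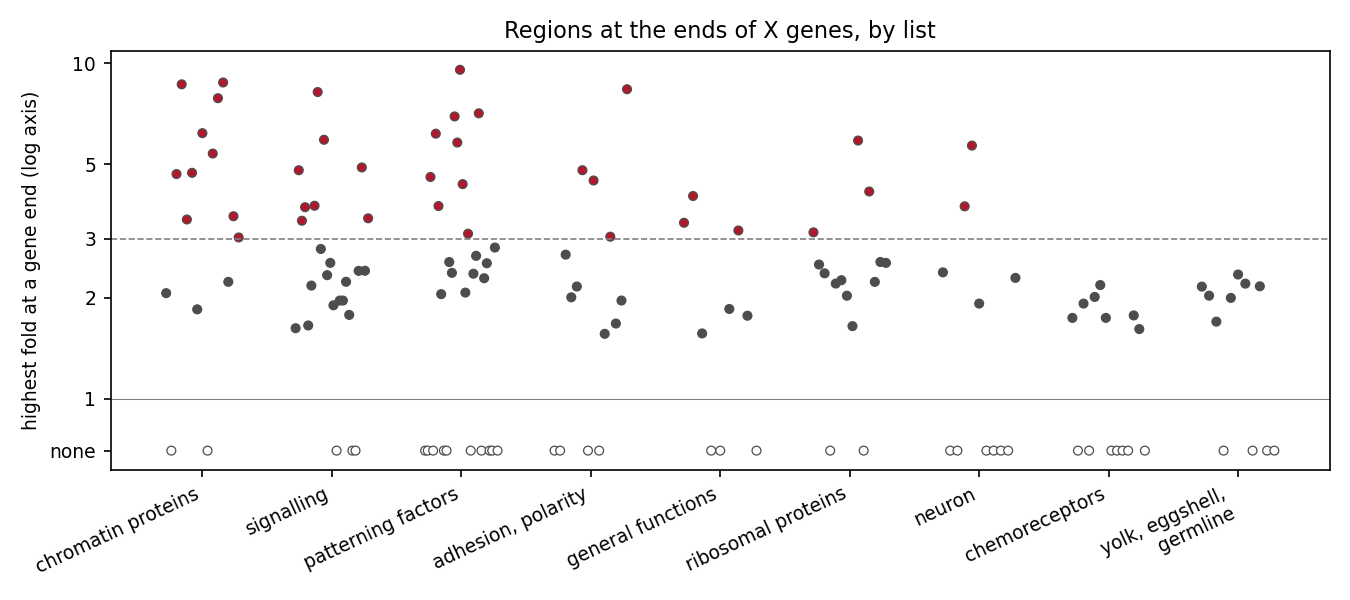
Highest fold at a gene end (y axis, log scale) for each X member of 9 gene lists (x axis); filled red points are strong, grey ones weaker, and open points at the bottom have no region at an end. The dashed line is the strong limit of 2.999. In chromatin proteins 10 of 15 points lie above it, and in chemoreceptors and in yolk, eggshell and germline genes none.

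Regions at the dosage compensation genes of X were weak. The lower end window of roX1 was overlapped by a region of fold 1.98 (1.65 to 2.35), X:3852254-3856860, and 1 region of 2.42 (2.00 to 2.90) lay inside roX1, with 116 reads. No region lay inside roX2 or at its ends. The region inside mof, the acetyltransferase gene of the complex, had 1.67.

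The region beside roX1 was the widest on X, at 4607 bp, and its summit lay in ec, 4256 bp from roX1. Width and fold did not go together at this extreme. The next widest had their summits inside Gapvd1 (3822 bp, fold 1.80) and baz, a cell polarity gene (3699 bp, fold 2.05), at an end of Mlc-c, a myosin light chain gene (3436 bp, fold 3.14), and inside futsch, a microtubule-binding protein gene of neurons (3282 bp, fold 2.40). Over all regions the median width was 519 bp on X and 493.5 bp on the autosomal arms.

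Several X genes held many regions each. The adhesion gene kirre had 65 summits inside its 394149 bp, the most of any X gene, or 1.65 per 10 kb. Other genes lie within that span, among them rst with 5 summits and w with 2, which are counted in the 65. Mur2B had 47 and overlaps br, whose 29 are among them. Then came prage with 27, Tlk, a kinase gene, with 26, Cph with 23, CG1677, which contains brk, with 22, and Hr4, bi and trol with 21 each. Per length Tlk was densest of these, with 3.73 per 10 kb, followed by prage with 3.38, Mur2B with 3.24 and br with 3.23. Over all protein-coding genes the mean was 1.53 summits inside a gene on X and 1.66 on the autosomal arms.

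Neighbouring summits on X were a median of 2798 bp apart, against 2574 bp on the autosomal arms. The upper end differed more, with a 90th percentile of 11855 bp on X against 8741 bp. The longest gap on X, 318088 bp from 22.1 to 22.4 Mb, touched 21 protein-coding genes, and the longest on the autosomal arms was 215374 bp. The next on X, 212467 bp, touched 22 protein-coding genes, and it is where y, ac, sc, l(1)sc and ase lie. A gap of 204402 bp followed inside and beside rg, and ovo lay in one of 123456 bp. Summits under 1000 bp apart made up 10.2% of neighbours on X and 10.8% on the autosomal arms.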

How the data were processed

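ATAC-seq of 2 D17 libraries (1 group) was analysed from 1 peak list of 10 columns. Tools named in the submitters' processing notes, with no role stated, are MACS2 2.2.6, bedtools 2.29.2, SAMtools 1.13, Bowtie2 2.3.5.1 and Trim Galore 0.6.4, beside the builds dm6 and BDGP6. For pooling of libraries, read shifting and total depth, nothing is given in the sources used here. The deposited fold is a ratio of summit pileup to local background, deposited beside −log10 p-values and q-values and a score near 10 times the −log10 q. These meanings were taken from layout and values. Whole-number pileup and background were recovered from fold and p-value (largest relative error 2.11e-05), after the recovery was tested on simulated data.

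Gene ends came from a RefSeq table of Release 6 without strand or exons, so starts and stops cannot be told apart. Autosomal arms were limited to 2L up to 22 Mb, 2R from 5.7 Mb, 3L up to 23 Mb and 3R from 4.2 Mb, rounded textbook limits. Shares have exact binomial (Clopper-Pearson) intervals, folds exact Poisson intervals at fixed background, and medians binomial ones. No p-value was computed, since values per library were not analysed here. Members and lists were chosen with earlier results of these data known. Named genes were the 10 highest folds, 5 widest regions, 10 genes with the most summits, up to 4 members per list with the highest folds and up to 3 without a region, roX1, roX2 and genes of the richest and poorest stretch; others were named after their values were seen. One listed name matched no X gene, and 1 gene among the highest folds is not reported here. Alternatives were other windows, merged regions, score or pileup in place of fold, other limits and stretches left out. No sequence was used. Python 3.11.15, numpy 2.4.6, pandas 2.3.3, SciPy 1.17.1 and matplotlib 3.10.9 were used.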

Additional observations from a re-analysis of the deposited data

How the results depend on the processing

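Of 48 values recomputed under the alternatives, 24 stayed within the counting interval of the value first given (for numbers of regions, within 1.5 times) and 24 moved. The direction of the difference between X and the autosomal arms changed in 1, the share of genes with a region at an end when strong regions alone were counted. Relative to the autosomal arms, X had 0.715 times the regions per Mb among the upper 50% by score (1888 X regions), 0.655 without 9 to 11 Mb, 0.660 without 1 to 2 Mb, 0.754 without 12 to 15 Mb (added after its counts were seen) and 0.757 with whole autosomal arms. The strong share was 25.8% on X against 18.8% in the upper 50% by score, 15.1% against 10.5% with regions under 500 bp apart merged, and 7.39% against 4.60% or 24.7% against 19.1% with strong taken as the upper 5% or 20%. The median fold was 2.36 on X against 2.25 in the upper 50% by score and 1.96 against 1.93 after merging. The share at the lowest background was 37.4% on X in the upper 50% by score, 44.9% after merging, 45.1% without 1 to 2 Mb and 40.79% without 12 to 15 Mb. Summits near a gene end made up 25.6% on X against 28.7% in the upper 50% by score, 9.17% against 9.22% within 200 bp, 40.4% against 43.8% within 1000 bp and 19.7% against 21.99% at protein-coding ends. X genes with a region at an end were 37.3% against 46.0% within 200 bp, 71.5% against 83.3% within 1000 bp, 37.3% against 46.6% where the summit itself had to lie in the window, and 14.5% against 10.9% for strong regions. The alternatives keep fewer regions, join them, change the window or the strong limit, widen the arms or leave a stretch out. Why a value moved was not tested. No paired analysis was possible because the list carries no value per replicate, and leaving out a replicate could not be run for the same reason. Regions with fewer than 62 reads at the summit are not in the list, which limits what can be said of weak regions.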
